A study of Homo sapiens with 6 samples.

Results

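The genes described here encode the subunits of respiratory complex I. They were chosen by name and not by any measured value: every row of the deposited expression table whose RefSeq protein accession maps to a gene named NDUFA, NDUFB, NDUFC, NDUFS or NDUFV with a number, or to NDUFAB1, together with the rows of the mitochondrially encoded ND1 to ND6 and ND4L. Assembly factors (NDUFAF genes) were left out. The choice was made with earlier results of these data known. The rule found 44 genes of the 19053 with a symbol, of which 37 are nuclear and 7 mitochondrial. The 37 nuclear genes hold 85 of the 109018 accessions in the table, and for each gene the accession that collected the most reads was used.

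Complex I is the entry point of electrons from NADH into the respiratory chain. It is an L-shaped enzyme of the inner mitochondrial membrane. In its matrix arm the N module oxidises NADH, and the Q module passes the electrons through iron-sulfur clusters to ubiquinone. The membrane arm, with a proximal and a distal part, pumps protons. The core subunits that carry out the chemistry are encoded partly in the nucleus and partly in mitochondrial DNA, and the remaining accessory subunits, all nuclear, surround and stabilise the core. Proliferating leukemic cells such as K562 use both glycolysis and oxidative phosphorylation.

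K562 is a cell line from a chronic myeloid leukemia that carries the BCR-ABL fusion. RNA-seq compared a stable knockdown of lncRNA-IUR-5 by shRNA in these cells (sh-IUR-5, spelled sh-lncRNA-IIRX in the labels) with a luciferase shRNA control (sh-luc), with 3 libraries per group. No drug treatment is given in the labels for either group, each group rests on 1 shRNA, and whether the lines are clones or pools is not given in the sources used here. The deposit describes the 6 RNA samples as coming from 3 independent experiments, whereas the library names put libraries 2 and 3 of each group in 1 series and library 1 in another, so the p-values measure the spread between these libraries, part of which may be technical.

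The table lists protein accessions, so lncRNA-IUR-5 itself was not analysed here and the knockdown could not be checked. Reads on accessions ranged from 21023739 to 31481109 per library, the most being in sh-IUR-5 library 1. Among the nuclear subunits, reads on a chosen accession ranged from 254 (NDUFC1) to 8214 (NDUFV2) in a library, and on the mitochondrial subunits from 23268 to 330536. All 10 erythroid markers that fit K562 were measured, and of 12 markers of other blood and stromal cells only LYZ passed the minimum level (91.4 ± 7.39 in sh-luc and 86.6 ± 4.23 in sh-IUR-5, TMM-scaled RPKM, SD, n = 3), while MS4A1 had no read. The summed level of those 12 was 85.5 to 99.5 in sh-luc and 82.4 to 91.2 in sh-IUR-5. The erythroid list differed between the groups: 6 of its 10 members were lower and 2 higher, against 21.7% and 23.3% of 8873 tested genes. Its summed level was 24304 to 27070 in sh-luc and 16789 to 17736 in sh-IUR-5. Its part in the results on complex I was not tested. In RNA from whole cultures, fewer cells of a type and less RNA per cell cannot be told apart.

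Levels below are TMM-scaled RPKM, that is, RPKM (reads divided by the length of the accession and by the size of the library) with library sizes scaled by edgeR's TMM method, so they can be compared between genes and between libraries. Errors of levels are SD over 3 libraries. Fold changes are sh-IUR-5 over sh-luc on the log2 scale with their standard error (SE), and p-values are from edgeR's quasi-likelihood test, two-sided and adjusted (Benjamini-Hochberg) over all 38204 accessions whose RPKM averaged 1 or more over the 6 libraries. All 44 subunits passed that minimum.

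Nuclear complex I transcripts were lower in the knockdown cells in nearly every case. Of the 37 nuclear subunits, 34 were lower in sh-IUR-5 at an adjusted p under 0.05, 1 (NDUFS1) was higher and 2 (NDUFA5 and NDUFB5) did not pass. Many genes changed in this comparison, since 37.3% of all tested accessions passed in either direction, 18.1% lower and 19.2% higher. With 1 accession per gene, 21.7% of 8873 genes were lower and 23.3% higher. The median log2 fold change was -0.50 over the 37 nuclear subunits, with a range of -0.78 to 0.31, and 0.0049 over all tested accessions. In the same 34 genes each sh-IUR-5 library lay below each sh-luc library, which held for 23.7% of all accessions, and NDUFS1 was the gene with each sh-IUR-5 library above each sh-luc library (24.9% of all accessions). Within the label series that holds libraries 2 and 3 of each group, 33 nuclear subunits were lower and the median was -0.43. In that fit 13460 of the 38204 accessions passed in either direction. Libraries 2 and 3 of a group may be technical repeats, which the labels do not settle. The p-values of that fit may then measure technical spread only. The other label series has 1 library per group, which allows no test. For single genes, 3 libraries against 3 cannot give an exact permutation p below 0.1.

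The 7 mitochondrial subunits did not move as a block. ND3, ND5 and ND6 were lower, ND4L was higher, and ND1, ND2 and ND4 did not pass. Their median log2 fold change was -0.16. Within the label series of libraries 2 and 3, ND4 was also lower (-0.12, edgeR adjusted p = 0.0157), as it was with the label series as a term in the fit of all 6 libraries (-0.15, edgeR adjusted p = 0.0216). The p-value within that label series may measure technical spread only.

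**Figure D1:**
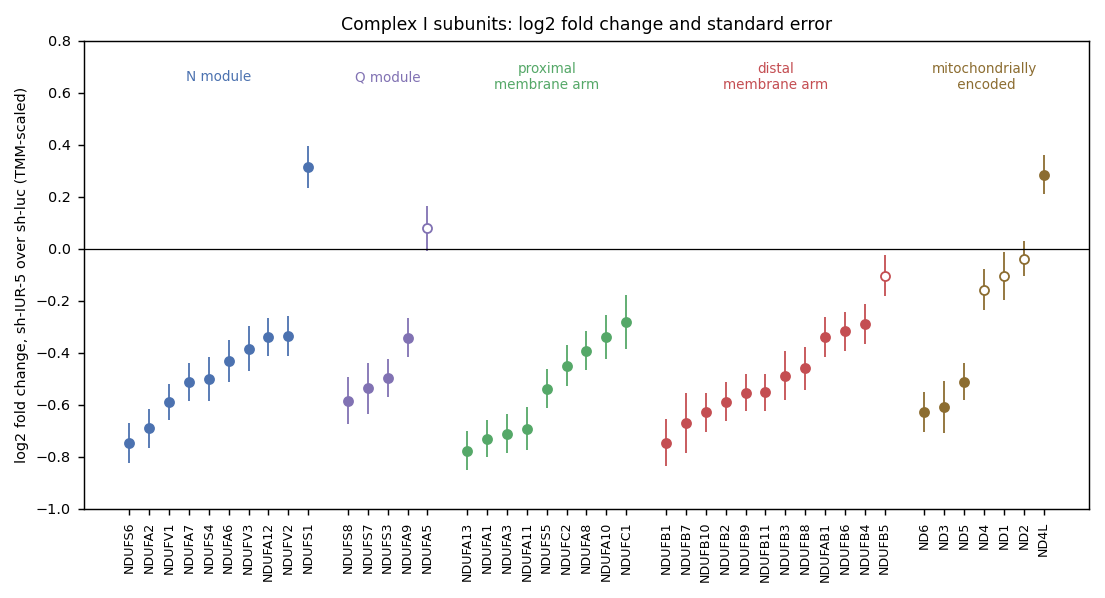
Log2 fold change of 43 complex I subunits, sh-IUR-5 over sh-luc after TMM scaling (vertical axis), with bars of 1 standard error, grouped by structural module along the horizontal axis. Filled points have an edgeR adjusted p under 0.05 and open points do not. Among the nuclear subunits, NDUFS1 at 0.31 stands above 0 while 33 filled points lie between -0.78 and -0.28, and the mitochondrial subunits run from -0.63 to 0.29.

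The N module, the tip of the matrix arm where NADH is oxidised, held both the subunit that was higher and some of the largest falls. Of its 10 members 9 were lower and 1 was higher. NDUFV1, which binds NADH and the flavin, was measured at 179, 171 and 182 in sh-luc libraries 1, 2 and 3 and at 117, 122 and 115 in sh-IUR-5 libraries 1, 2 and 3. The groups were well apart, and the level fell by 33.5% (log2 fold change -0.59, SE 0.07, adjusted p = 4.33e-06). NDUFV2, its iron-sulfur partner, stood at 428, 472 and 433 in sh-luc and 316, 370.2 and 371 in sh-IUR-5. The groups did not overlap (log2 fold change -0.33, SE 0.08, adjusted p = 0.0024), but scaled to total reads the gene did not pass (-0.14, edgeR adjusted p = 0.0913).

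NDUFS1, the large core subunit that carries several iron-sulfur clusters of the N module, went the other way. Its level was 13.4, 13.9 and 13.4 in sh-luc and 16.1, 17.4 and 17.1 in sh-IUR-5, so all 3 sh-IUR-5 libraries were higher (log2 fold change 0.31, SE 0.08, adjusted p = 0.00539). At the chosen accession its level was the lowest of the 37 nuclear subunits. It was 13.6 ± 0.326 in sh-luc, against 32.2 to 1086 for the 30 accessory subunits. A gene's reads may be split over its accessions, so this rank is of single accessions and may not hold for the whole gene. The chosen accession of NDUFS1 was also the longest of the 37, at 2226 coding bases. NDUFS1 has 5 accessions that share most of their sequence. Of these, 2 were higher (log2 fold change 0.31 and 0.25, the second with edgeR adjusted p = 0.0326) and 3 did not pass, with log2 fold changes of 0.03, 0.13 and 0.15. Summed over its accessions, NDUFS1 rose by less (log2 fold change 0.21, edgeR adjusted p = 0.0226). After removal of each library's trend on coding length it did not pass (0.20, edgeR adjusted p = 0.0575).

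The N module's accessory subunit NDUFS6, which binds zinc and joins late in assembly, had one of the largest falls. It was measured at 814, 828 and 872 in sh-luc and at 445, 541 and 512 in sh-IUR-5. The highest sh-IUR-5 library stayed well below the lowest sh-luc library, and the level fell by 40.4% (log2 fold change -0.75, SE 0.08, adjusted p = 1.22e-06). The other accessory members of the module (NDUFA2, NDUFA6, NDUFA7, NDUFA12, NDUFS4 and NDUFV3) were all lower, from -0.69 for NDUFA2 to -0.34 for NDUFA12 on the log2 scale. Structural schemes differ on whether some of these sit in the N or the Q module.

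In the Q module, where ubiquinone is reduced, 5 of 6 members were lower. NDUFS7, the carrier of the last iron-sulfur cluster before ubiquinone, was at 159, 141 and 177 in sh-luc and 121, 115 and 92.6 in sh-IUR-5 libraries 1, 2 and 3. Its libraries were more scattered within each group, but the groups stayed apart (log2 fold change -0.54, SE 0.10, adjusted p = 0.000373).

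NDUFS3, a core subunit of the same module, was at 246, 259 and 262 in sh-luc and 168, 192 and 185 in sh-IUR-5 (log2 fold change -0.50, SE 0.07, adjusted p = 4.74e-05). NDUFS8, another iron-sulfur subunit, was at 58.2, 58.7 and 66.4 and 38.9, 44.7 and 38.8 in the same order (log2 fold change -0.58, SE 0.09, adjusted p = 6.77e-05). In both genes the groups were apart. The accessory subunit NDUFA9 was lower as well (log2 fold change -0.34, adjusted p = 0.00182), though not when scaled to total reads (-0.15, edgeR adjusted p = 0.0813). NDUFA5, a small accessory subunit of the Q module, was the member that did not pass. Its level was 123, 142 and 146 in sh-luc and 134, 145 and 154 in sh-IUR-5, and the groups overlapped (log2 fold change 0.08, SE 0.09, adjusted p = 0.504).

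All 9 members of the proximal membrane arm were lower, with a median log2 fold change of -0.54. NDUFA13, also known as GRIM-19, had the largest fall of all 44 subunits. It was at 844, 792 and 904 in sh-luc and 481, 529 and 473 in sh-IUR-5, and with no overlap it fell by 41.6% (log2 fold change -0.78, SE 0.07, adjusted p = 5.36e-07). NDUFA1, a single-pass membrane subunit needed for assembly of the arm, was at 928, 959.6 and 961 in sh-luc and 556, 613 and 549 in sh-IUR-5. The replicates lay close together in each group (log2 fold change -0.73, SE 0.07, adjusted p = 7.13e-07).

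NDUFA3, another small membrane subunit, was at 300.3, 303 and 293 in sh-luc and 181, 190.3 and 177 in sh-IUR-5 (log2 fold change -0.71, SE 0.08, adjusted p = 1.33e-06). NDUFA11, which lies near the contact with complex III in supercomplexes, was at 329, 333 and 367 in sh-luc and 213, 232 and 193 in sh-IUR-5 (log2 fold change -0.69, SE 0.08, adjusted p = 4.39e-06). In both genes the highest sh-IUR-5 library remained far below the lowest sh-luc library. NDUFA8, NDUFA10, NDUFC2 and NDUFS5 were lower by log2 fold changes of -0.34 to -0.54. NDUFS5, an intermembrane-space subunit, had the highest level of the nuclear subunits (1086 ± 26.4 in sh-luc and 748 ± 69.8 in sh-IUR-5).

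NDUFC1 was the least certain of the 34. It was at 56.3, 55.5 and 64.0 in sh-luc and 44.4, 52.0 and 48.6 in sh-IUR-5, with a gap between the groups smaller than the spread within them (log2 fold change -0.28, SE 0.10, adjusted p = 0.0382). Its call was lost when sh-luc library 3, sh-IUR-5 library 1 or sh-IUR-5 library 3 was left out. It was also lost when libraries were scaled to total reads (-0.09, edgeR adjusted p = 0.517) and in DESeq2 (-0.29, adjusted p = 0.0739), and after removal of the length and GC trends the direction turned (0.14, edgeR adjusted p = 0.235). Its reads lie on 7 accessions of identical length, and with these summed it was lower (-0.28, edgeR adjusted p = 0.00601), as it was with the replicate block (-0.28, edgeR adjusted p = 0.0153).

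In the distal membrane arm 11 of 12 members were lower. NDUFB1, a small single-pass subunit, was at 292, 314 and 274 in sh-luc and 153, 179 and 194 in sh-IUR-5, again without overlap (log2 fold change -0.74, SE 0.09, adjusted p = 5.61e-06). The other lower members ran from -0.67 for NDUFB7 to -0.29 for NDUFB4, and included NDUFAB1 (-0.34), the mitochondrial acyl carrier protein, which also serves fatty acid synthesis. NDUFB7 was the most variable of them, with 289.7, 231 and 351 in sh-luc and 158, 194 and 196 in sh-IUR-5. After removal of the length and GC trends NDUFB7 did not pass (-0.25, edgeR adjusted p = 0.119). NDUFB5 did not pass: it was at 85.9, 85.4 and 79.5 in sh-luc and 80.8, 77.5 and 75.0 in sh-IUR-5, so the groups overlapped (log2 fold change -0.10, SE 0.08, adjusted p = 0.318).

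**Figure D2:**
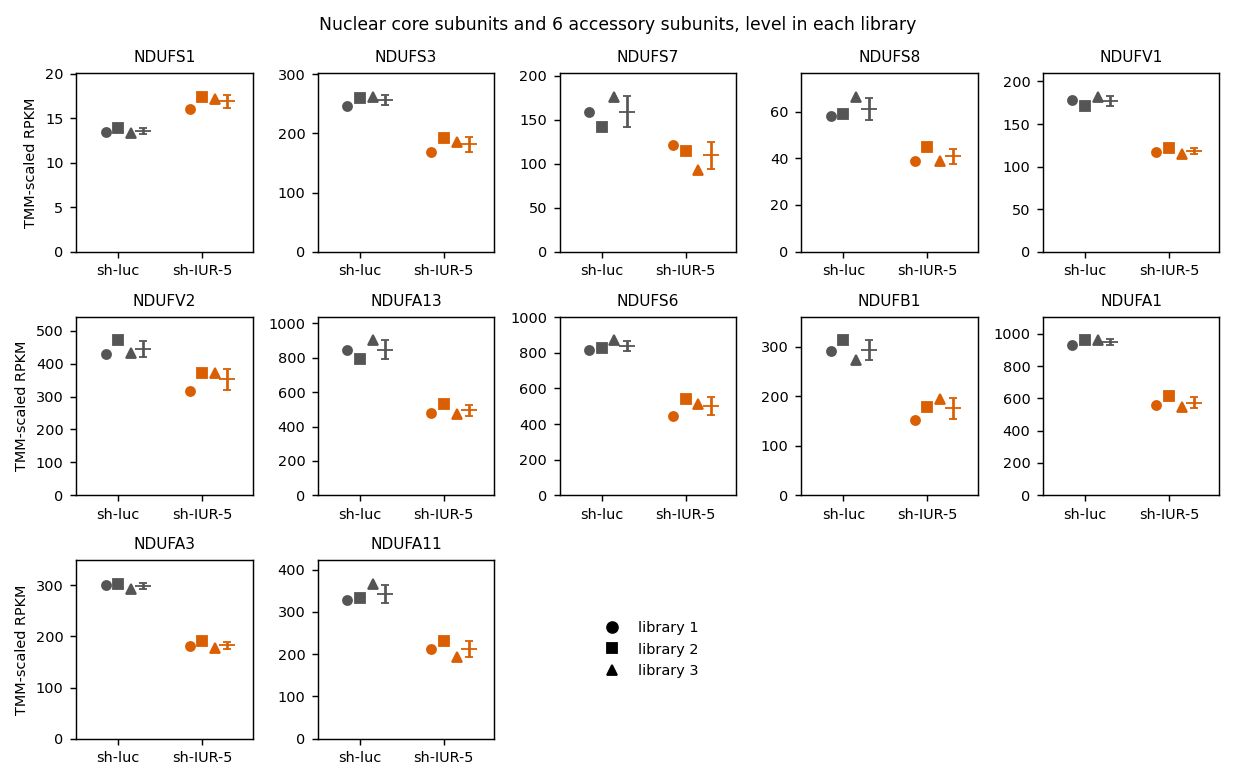
Level in each library (TMM-scaled RPKM, vertical axis from 0) of 6 nuclear core subunits and of the 6 accessory subunits with the largest fall. Marker shapes stand for libraries 1, 2 and 3 of each group, and the bar beside them is the mean ± SD (n = 3). NDUFS1 is higher in all 3 sh-IUR-5 libraries, and in the other 11 panels all 3 sh-IUR-5 libraries lie below the 3 sh-luc libraries.

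The isoforms of the nuclear subunits stand in separate rows. Of the 85 accessions of nuclear subunits 67 were lower, 2 were higher, both of NDUFS1, and 16 did not pass. In the 25 genes with several accessions no gene had accessions past the threshold in opposite directions. The 7 accessions of NDUFC1, all of one length, and the 2 of NDUFS5 carried nearly equal but not identical read numbers, while 2 accessions of NDUFA5 with the same length averaged 602 and 1214 reads. How such reads were assigned is not known, so a gene's reads may be split over its accessions and a single row's level may understate the gene. The readthrough NDUFC2-KCTD14, which shares sequence with NDUFC2, is not a member and was also lower (log2 fold change -0.29, edgeR adjusted p = 0.00977). COXFA4, formerly NDUFA4 and now placed in complex IV, is likewise no member and was at 1081 ± 16.2 in sh-luc and 812 ± 36.4 in sh-IUR-5 (log2 fold change -0.41, adjusted p = 0.000152).

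Promoter windows of the nuclear subunits were searched for letters bound by known regulators of respiratory genes. RefSeq windows of 300 bases (GRCh38.p14, 250 before to 50 after a gene's start) were found for 32 of the 37 genes. The windows of NDUFS1, the gene that rose, and of the 4 genes with the largest falls are shown 5′ to 3′ on the gene's strand to set their motifs side by side, with the ETS letters CCGGAAG and the YY1 core ATGGCGG in capitals on whichever strand they were found. They lie at chr2:206159395-206159694 (minus strand, NDUFS1), chr19:19515975-19516274 (plus strand, NDUFA13), chr5:1801157-1801456 (plus strand, NDUFS6), chr14:92121657-92121956 (minus strand, NDUFB1) and chrX:119871582-119871881 (plus strand, NDUFA1).
NDUFS1: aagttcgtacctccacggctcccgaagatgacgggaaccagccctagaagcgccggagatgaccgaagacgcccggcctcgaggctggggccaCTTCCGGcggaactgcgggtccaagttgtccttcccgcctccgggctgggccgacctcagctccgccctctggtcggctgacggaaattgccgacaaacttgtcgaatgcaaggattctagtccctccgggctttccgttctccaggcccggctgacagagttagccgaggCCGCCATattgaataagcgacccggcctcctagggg
NDUFA13: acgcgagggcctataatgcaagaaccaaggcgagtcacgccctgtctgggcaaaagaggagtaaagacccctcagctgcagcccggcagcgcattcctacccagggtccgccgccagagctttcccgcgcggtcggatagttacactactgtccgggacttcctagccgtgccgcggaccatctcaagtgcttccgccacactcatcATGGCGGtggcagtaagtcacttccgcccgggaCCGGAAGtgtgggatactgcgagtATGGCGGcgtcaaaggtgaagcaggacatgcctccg
NDUFS6: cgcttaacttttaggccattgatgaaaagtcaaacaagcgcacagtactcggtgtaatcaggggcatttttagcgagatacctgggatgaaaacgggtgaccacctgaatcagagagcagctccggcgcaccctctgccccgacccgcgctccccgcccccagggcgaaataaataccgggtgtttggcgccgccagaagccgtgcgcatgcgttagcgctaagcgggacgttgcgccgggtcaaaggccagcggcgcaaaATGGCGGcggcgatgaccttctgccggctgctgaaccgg
NDUFB1: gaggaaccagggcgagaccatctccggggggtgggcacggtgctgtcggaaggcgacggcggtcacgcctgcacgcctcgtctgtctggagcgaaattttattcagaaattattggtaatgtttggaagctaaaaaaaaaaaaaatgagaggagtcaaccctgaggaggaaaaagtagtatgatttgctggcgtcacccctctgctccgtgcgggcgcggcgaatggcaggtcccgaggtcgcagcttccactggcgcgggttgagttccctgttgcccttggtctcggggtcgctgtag
NDUFA1: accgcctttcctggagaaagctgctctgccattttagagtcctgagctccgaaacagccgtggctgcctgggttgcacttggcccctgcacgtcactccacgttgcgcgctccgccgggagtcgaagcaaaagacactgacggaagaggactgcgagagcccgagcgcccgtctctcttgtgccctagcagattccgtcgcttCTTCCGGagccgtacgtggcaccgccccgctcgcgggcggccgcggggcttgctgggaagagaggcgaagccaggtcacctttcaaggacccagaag

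In this window NDUFS1 held an ETS match and a YY1 match, as did NDUFA13, which fell most, while NDUFB1 held neither. A second listed window of NDUFS1 (chr2:206159160-206159459, not shown) held a YY1 match and no ETS match. Over both strands, ATGGCGG was found in 15 of the 32 genes (46.9%), against 6.66% of 27305 gene symbols with a window. It was found in 13 of the 30 lower genes with a window, and also in NDUFS1 and NDUFA5, which were not lower. The letters ATGGCGG contain a start codon, and whether a match begins a reading frame was not examined. The NRF1 palindrome was found in 6 of 32 genes (18.8%, against 6.98% of all), CCGGAAG in 5 (15.6%, against 12.2%) and CCAAT in 8 (25.0%, against 39.7%). NRF1 letters were found in the windows of NDUFA3, NDUFA8, NDUFA9, NDUFA11, NDUFA12 and NDUFB4, all 6 of them lower. Of all 32 genes with a window, 30 were lower, so a link between these letters and the direction cannot be read from this. Each motif was counted by itself, whether or not a match overlapped one of another motif. The matches describe the windows and do not show binding.

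Transcripts of 9 regulators of nuclear respiratory genes were measured in the same libraries. Of the 9 regulators, 5 passed the minimum level, of which 2 were higher and 0 lower, against 23.3% and 21.7% of the 8873 genes. GABPA, the ETS-family subunit of NRF-2, was higher (2.16 ± 0.114 in sh-luc and 3.67 ± 0.275 in sh-IUR-5, log2 fold change 0.76, adjusted p = 0.000355), and so was YY1 (49.0 ± 4.14 and 60.8 ± 1.37, log2 fold change 0.31, adjusted p = 0.00512). NRF1 (log2 fold change 0.43, adjusted p = 0.0577), GABPB1, the partner of GABPA (log2 fold change 0.42, adjusted p = 0.211), and the nuclear receptor ESRRA (log2 fold change -0.17, adjusted p = 0.209) did not pass. Scaled to total reads, NRF1 passed as well (0.62, edgeR adjusted p = 0.0074) and ESRRA turned to 0.02. PPARGC1A, the coactivator PGC-1 alpha, had no read in any library, and PPARGC1B, PPRC1 and CREB1 were under the minimum level.

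The mitochondrially encoded subunits are core subunits of the membrane arm. All but ND6 are read from the same strand of mitochondrial DNA as parts of long polycistronic transcripts. On the hg38 mitochondrial genome ND3 spans chrM:10059-10404, ND4L chrM:10470-10766, ND4 chrM:10760-12137 and ND5 chrM:12337-14148 on the plus strand, and ND6 chrM:14149-14673 on the minus strand. ND5 and ND4 are antiporter-like proton pumps of the distal arm, and ND2 is that of the proximal arm. ND5 was measured at 3439, 3344 and 3204 in sh-luc and 2111, 2421 and 2482 in sh-IUR-5 libraries 1, 2 and 3. All sh-IUR-5 libraries were lower, by 29.8% on average (log2 fold change -0.51, SE 0.07, adjusted p = 2.02e-05). ND4 was at 8009.8, 6723 and 6539 in sh-luc and 6928, 5961 and 6177 in sh-IUR-5, with sh-luc library 1 above the rest and overlapping groups (log2 fold change -0.16, SE 0.08, adjusted p = 0.123). ND2 was at 6609.8, 6941 and 6606 in sh-luc and 5992, 6708 and 6932 in sh-IUR-5, also with overlap (log2 fold change -0.04, SE 0.07, adjusted p = 0.686).

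ND1, which forms the entry of the ubiquinone channel, was at 3588, 3722 and 3611 in sh-luc and 2724, 3616 and 3823 in sh-IUR-5. The sh-IUR-5 library 1 stood apart from the 5 others, and the groups overlapped (log2 fold change -0.10, SE 0.09, adjusted p = 0.395). The directions of ND1, ND2 and ND4 turned to higher when libraries were scaled to total reads (log2 fold change 0.09, 0.15 and 0.04, of which ND2 passed, with edgeR adjusted p = 0.0165). ND3, a small hydrophobic subunit at the junction of the arms, was at 9713, 10232 and 9179 in sh-luc and 4992, 6899 and 7237 in sh-IUR-5. It had the highest level of the ND genes in sh-luc, and its lowest value was again that of sh-IUR-5 library 1 (log2 fold change -0.61, SE 0.10, adjusted p = 0.000129).

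ND6, encoded on the opposite strand, was at 3447, 3327 and 3276 in sh-luc and 1889.8, 2317 and 2304 in sh-IUR-5 (log2 fold change -0.63, SE 0.08, adjusted p = 6.72e-06). The groups did not overlap, and sh-IUR-5 library 1 was again the lowest. ND4L was at 4721, 4291 and 3954 in sh-luc and 5177, 4932 and 5694 in sh-IUR-5. It was the one ND gene with all sh-IUR-5 libraries higher (log2 fold change 0.29, SE 0.08, adjusted p = 0.00666). ND4L is no separate transcript, since it is made as one mature RNA with ND4, which did not pass. The ND4L call was lost without sh-luc library 3 (log2 fold change 0.23, edgeR adjusted p = 0.0626) and without sh-IUR-5 library 3 (0.22, edgeR adjusted p = 0.068).

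Both neighbouring pairs are shown (hg38, plus strand), since their reads share sequence or lie end to end. ND4L and ND4 are made as one mature RNA and overlap by 7 bases, in capitals in the first window (chrM:10730-10796). In the second window (chrM:14119-14178) the capitals are the last 3 bases of ND5, on the plus strand, followed by the last 3 of ND6, which is read from the minus strand.
ND4L and ND4 overlap: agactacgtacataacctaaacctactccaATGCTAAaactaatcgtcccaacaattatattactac
ND5 and ND6 ends: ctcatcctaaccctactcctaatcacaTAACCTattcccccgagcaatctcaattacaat

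Although ND4L and ND4 overlap, the ratio of their levels per length differed between the groups. It was 0.589, 0.638 and 0.605 in sh-luc and 0.747, 0.827 and 0.922 in sh-IUR-5. Every sh-IUR-5 ratio was above every sh-luc ratio (exact permutation test, two-sided, p = 0.1, the smallest possible). A ratio taken within a library does not depend on the scaling of libraries. The ratio of ND6 to ND5 was 1.00, 0.995 and 1.02 in sh-luc and 0.895, 0.957 and 0.928 in sh-IUR-5, also without overlap. These pairs were chosen after their values were seen, and whether the libraries kept the strand of the RNA is not given in the sources used here, so reads of ND6 and of RNA opposite to it cannot be told apart.

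**Figure D3:**
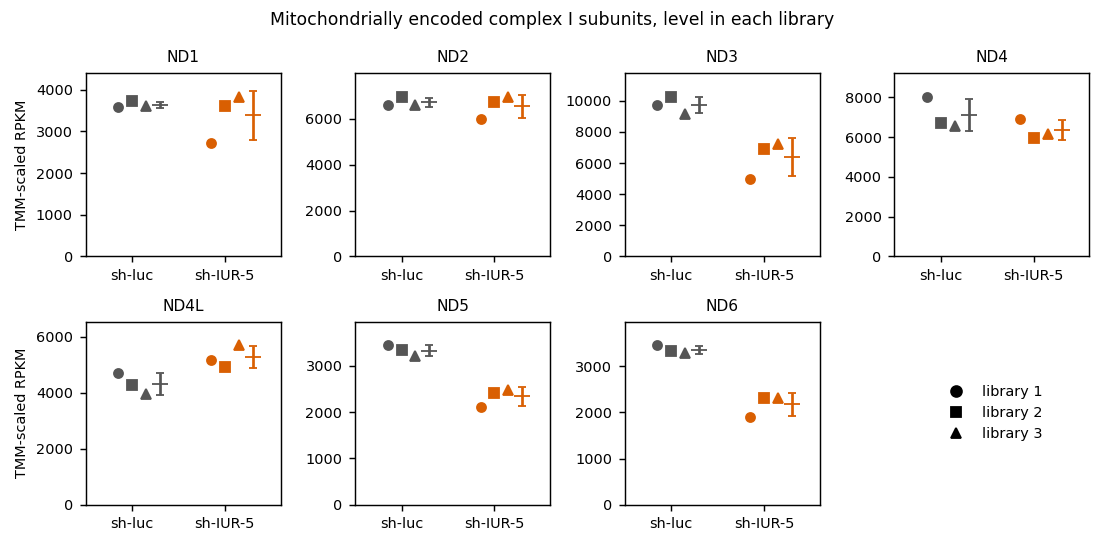
Level in each library (TMM-scaled RPKM, vertical axis from 0) of the 7 mitochondrially encoded subunits. Marker shapes stand for libraries 1, 2 and 3, and the bar beside them is the mean ± SD (n = 3). The groups are apart for ND3, ND5 and ND6, lower in sh-IUR-5, and for ND4L, higher in sh-IUR-5, and they overlap for ND1, ND2 and ND4.

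The other mitochondrial protein genes went in both directions. Of the 6 that encode subunits of complexes III, IV and V, COX3 (log2 fold change -0.34, adjusted p = 0.000899) and COX2 (log2 fold change -0.18, adjusted p = 0.0446) were lower. COX1 was higher (log2 fold change 0.22, adjusted p = 0.0245), and CYTB, ATP6 and ATP8 did not pass. Over the 8873 tested genes 21.7% were lower and 23.3% higher. Scaled to total reads, COX2 turned to 0.02 and 3 of the 6 (COX1, ATP6 and ATP8) were higher. The share of all genes under that scaling was not counted. In that fit the median log2 fold change was 0.11 for the 6 and 0.20 over all tested accessions. All 13 mitochondrial protein genes together took 7.98% to 8.81% of the reads in sh-luc and 8.54% to 8.96% in sh-IUR-5. Within these reads, ND5 held 6.60% to 6.86% in sh-luc and 4.70% to 5.40% in sh-IUR-5, while ND4L held 1.39% to 1.49% in sh-luc and at most 2.01% in sh-IUR-5, with no overlap.

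The share of reads on complex I transcripts is set out here for both genomes side by side. The chosen accessions of the 37 nuclear subunits took 0.454%, 0.459% and 0.476% of the reads in sh-luc and 0.359%, 0.384% and 0.367% in sh-IUR-5. The 7 ND genes took 3.19%, 3.04% and 2.94% in sh-luc and 2.91%, 2.96% and 3.10% in sh-IUR-5. The nuclear shares were apart and the mitochondrial shares overlapped. These are shares of total reads, and TMM scaling gave another picture for the ND genes. Their summed TMM-scaled level was 39529, 38579 and 36369 in sh-luc and 29813, 32854 and 34648 in sh-IUR-5, lower without overlap. That of the 37 nuclear genes was 10867 to 11330 in sh-luc and 7146 to 8022 in sh-IUR-5. The summed level of the 7 ND genes over that of the 37 nuclear genes was 3.64, 3.50 and 3.21 in sh-luc. It was 4.17, 4.10 and 4.58 in sh-IUR-5, higher in each sh-IUR-5 library.

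Assembly factors build the complex but are not part of it. Of 18 listed, 17 were tested, 8 were lower and 0 were higher, against 21.7% and 23.3% of the 8873 genes, with a median log2 fold change of -0.20. The largest falls past the threshold were those of NDUFAF2, a chaperone of late assembly (241 ± 21.8 in sh-luc and 152 ± 21.7 in sh-IUR-5, log2 fold change -0.67, adjusted p = 3.6e-05), NDUFAF8 (log2 fold change -0.65, adjusted p = 0.000277), ECSIT, of the intermediate assembly complex for the membrane arm (log2 fold change -0.59, adjusted p = 3.43e-05), and NDUFAF5, which modifies NDUFS7 (log2 fold change -0.59, adjusted p = 0.0121). The other 9 tested factors did not pass, and NUBPL was under the minimum level. Scaled to total reads, 3 factors were lower (NDUFAF2, NDUFAF8 and ECSIT) and 2 were higher (NDUFAF7 and DMAC2). The share of all genes under that scaling was not counted. In that fit the median log2 fold change was -0.0063 for the tested factors and 0.20 over all tested accessions. Whether factors and subunits differed was not tested.

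Genes that maintain, transcribe and process mitochondrial DNA and RNA included lower and higher members. Of 24 tested, 5 were lower, a share near the 21.7% of all 8873 genes, and 2 were higher, against 23.3% of all, with a median log2 fold change of 0.03. Lower were POLG2, the accessory subunit of the mitochondrial DNA polymerase (log2 fold change -0.56, adjusted p = 0.000868), SLIRP, which stabilises mitochondrial mRNAs with LRPPRC (log2 fold change -0.43, adjusted p = 0.00192), SSBP1, the single-strand binding protein (log2 fold change -0.41, adjusted p = 0.00476), and HSD17B10, a subunit of mitochondrial RNase P (log2 fold change -0.39, adjusted p = 0.000425). Higher were MTPAP, the mitochondrial poly(A) polymerase (log2 fold change 0.43, adjusted p = 0.00176), and TFB2M, a transcription initiation factor (log2 fold change 0.33, adjusted p = 0.018). TFAM, which packages mitochondrial DNA, had a log2 fold change of 0.09 (adjusted p = 0.508). Scaled to total reads, 3 of the 24 were lower and 8 higher, TFAM among the latter (0.29, edgeR adjusted p = 0.0279). The share of all genes under that scaling was not counted. In that fit the median log2 fold change was 0.22 for the 24 and 0.20 over all tested accessions.

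Most complex I subunits are short proteins, and short and GC-rich genes were more often lower in this comparison as a whole. Of 1540 tested genes under 600 coding bases, 43.2% were lower, with a median log2 fold change of -0.24, and the 27 nuclear subunits among them had 25 lower and a median of -0.51. Of 2842 genes of 600 to under 1200 bases, 26.6% were lower, as were all 6 subunits in that range. Of 3522 genes with a coding GC content of 55% or more, 29.4% were lower, as were all 15 subunits in that range. Across the 8873 genes Spearman's rho of the log2 fold change was 0.32 with coding length and -0.25 with GC content. Across the 37 nuclear subunits, which share the same 6 libraries, it was 0.35 and -0.66. These correlations are across genes, which are no independent replicates.

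**Figure D4:**
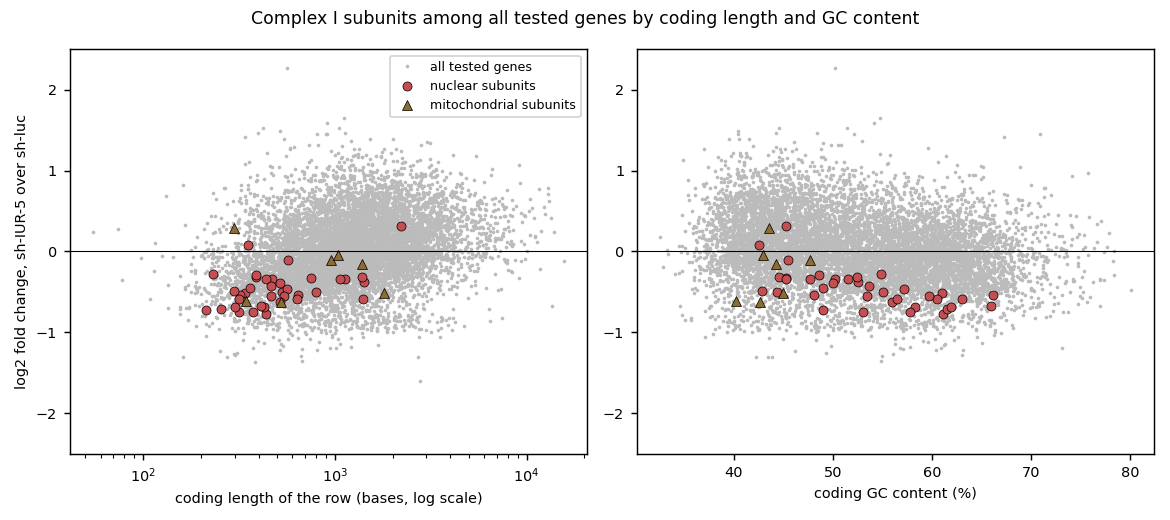
Log2 fold change (sh-IUR-5 over sh-luc, vertical axes) of each of the 8873 tested genes with a symbol against its coding length in bases (left, log axis) and its coding GC content in percent (right), at the accession with the most reads. Grey points are all genes, red circles the 37 nuclear and brown triangles the 7 mitochondrial subunits. The nuclear subunits sit mostly at short lengths and below 0.

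The size of the fall depended on the scaling and on these trends. Under the alternatives run, 2 to 4 of the 37 nuclear subunits had a log2 fold change above 0. Scaled to total reads, the median over all 38204 tested accessions moved from 0.0049 to 0.20, and 16484 of them passed in either direction. In that fit 24 nuclear subunits were lower and 2 (NDUFS1 and NDUFA5) higher, and the median of the 37 was -0.30. Among the subunits that were no longer past the threshold there were NDUFV2, NDUFV3, NDUFA9, NDUFA10, NDUFA12, NDUFAB1, NDUFB4, NDUFB6 and NDUFC1, with log2 fold changes of -0.19 (NDUFV3) to -0.09 (NDUFC1). With each library's trends on coding length and GC content removed, 28 nuclear subunits remained lower, and the median log2 fold change of the 37 was -0.29. NDUFA7, NDUFAB1, NDUFB4, NDUFB6, NDUFB7 and NDUFC1 were no longer lower past the threshold. NDUFS1 no longer passed (0.08, edgeR adjusted p = 0.34) and NDUFA5 did (0.23, edgeR adjusted p = 0.0179). That fit tested only genes with a known GC content, 98.9% of the 8873. Of these, 3660 passed in either direction, and their split by direction was not counted. In the same fit 5 mitochondrial subunits were lower. A set of 20 nuclear subunits was lower under every alternative tried, among them NDUFV1, NDUFS3, NDUFS7, NDUFS8 and the 6 accessory subunits with the largest fall.

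**Figure D5:**
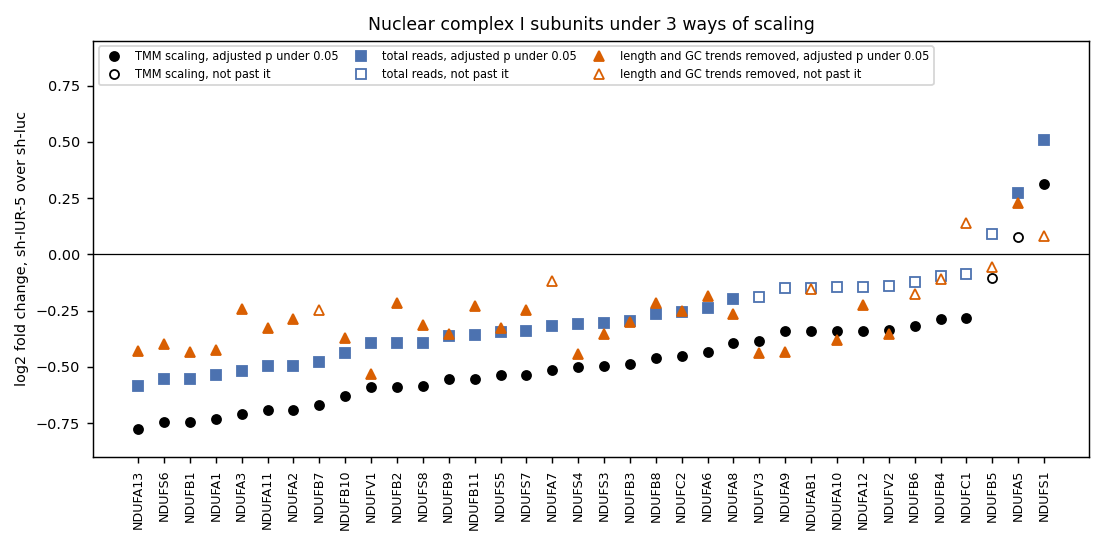
Log2 fold change (vertical axis) of 36 nuclear subunits, ordered by the TMM value, under TMM scaling (black circles), scaling to total reads (blue squares) and removal of length and GC trends (orange triangles). Filled points have an edgeR adjusted p under 0.05. Scaling to total reads moves all points up by about the same amount, while removal of the trends moves some points up and others, NDUFS1 among them, down.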

How the data were processed

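RNA-seq of 3 sh-IUR-5 and 3 sh-luc K562 libraries was analysed from the processed table. Groups and replicate numbers were taken from the sample labels, which spell the target sh-lncRNA-IIRX, and the match to lncRNA-IUR-5 from the study. The authors trimmed and masked the reads, mapped them to hg38 and deposited read counts per RefSeq protein accession without normalization. The submitters' processing notes list CASAVA 1.8, Trimmomatic 0.32, Bowtie2 2.1.0 and SAMtools 0.1.19. How reads that fit several isoforms were assigned, and whether the libraries kept strand, are not given in the sources used here. The authors also deposited RPKM values, which equal reads divided by the length of the accession and by the summed reads of the library throughout. A further deposited table, of the authors' own comparison (pooled counts and RPKM, fold change, p and q), was not used.

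Counts of the 38204 accessions whose RPKM averaged 1 or more were tested with edgeR 4.0.16 in R 4.3.3 (TMM, quasi-likelihood, no covariate, two-sided, Benjamini-Hochberg over all accessions, threshold 0.05). SE is the log2 fold change divided by the square root of F. Symbols were matched by accession for 64.7% of accessions with the RefSeq list of GRCh38.p14, and coding GC content came from GENCODE release 44 for 98.9% of genes. On simulated counts for the 38204 accessions edgeR recovered 26 of 50 changes of 1.5-fold and 49 of 50 of 2-fold, with 1 false call over all. The simulation changed far fewer accessions than the 14256 that passed in the data, and it held no label series effect. Its recovery and its false calls therefore need not carry over to these data. The coefficient of variation between replicates was 8.05%.

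Alternatives were DESeq2 1.42.0 and its size factors, limma 3.58.1 on log2(RPKM + 0.1) and log2(RPKM + 1), scaling to total reads, other minimum levels, thresholds and ways to take accessions, removal of a length trend, a replicate block, a label series term and each library left out. Removal of length and GC trends and the fit of 1 label series were added after the data were seen. The subunits, gene lists and motifs were chosen with earlier results of these data known. Values in every library are given for the mitochondrial and nuclear core subunits and for the 6 accessory subunits with the largest fall past the threshold (none rose), while 1 nuclear subunit enters the counts and medians and is otherwise not reported here. Other subunits are given by module, at most 4 per direction from the assembly and mitochondrial DNA lists, and all tested regulators. NDUFA5, NDUFB5, NDUFB7, NDUFC1, NDUFS5, NDUFAF7, DMAC2, the other mitochondrial protein genes and TFAM were named after their values were seen.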

Additional observations from a re-analysis of the deposited data

How the results depend on the processing

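The count of nuclear subunits that were lower ran from 24 to 34 over 23 alternatives, and from 33 to 34 with each library left out, where NDUFC1 was the one lost. It was 24, with a median log2 fold change of -0.30 and 2 subunits higher, when libraries were scaled to total reads and with limma at both pseudocounts. The limma fits used the deposited RPKM, which is itself scaled to total reads, so these fits share that scaling. The median was -0.38 at a mean RPKM of at least 5, -0.32 without the length trend and -0.29 without the length and GC trends, and with each library left out it ran from -0.53 to -0.44. The 6 nuclear core subunits shown and the 6 accessory subunits with the largest fall kept their direction in these fits. The median of the mitochondrial subunits, which is the value of ND4, reversed to 0.038 under scaling to total reads and 0.039 under limma at both pseudocounts, where 2 were higher, and was -0.33 without the length and GC trends, where 5 were lower. With each library left out it ran from -0.22 to -0.11, with 3 to 4 lower and 0 to 1 higher. ND4 itself reversed to 0.038 and 0.039 in the same fits. ND1 reversed to 0.086 under scaling to total reads, 0.075 under limma at both pseudocounts, 0.0083 at a mean RPKM of at least 5 and 0.026 in label series 2 alone, and with each library left out it ran from -0.20 to 0.034, above 0 without sh-IUR-5 library 1. ND2 reversed to 0.15 under scaling to total reads and limma, 0.076 at a mean RPKM of at least 5 and 0.015 in label series 2 alone, and with each library left out it ran from -0.084 to 0.025, again above 0 without sh-IUR-5 library 1. The difference in the share of reads on nuclear subunits, -0.093 percentage points, was -0.13 over all their accessions and -0.10 to -0.086 with each library left out.

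Accessions past the threshold numbered 14256 of all tested, 7356 at a mean RPKM of at least 5, 3995 with 1 accession per gene, 4407 with accessions summed, 3645 without the length trend, 3660 without both trends (these 5 fits test fewer rows), 9100 at an adjusted p under 0.01, and 11215 to 13582 with each library left out. The causes of the other shifts were not tested. Same-numbered libraries had correlated deviations of 0.31, 0.088 and -0.013. So few correlations cannot show whether the numbers pair the samples, and the main fit left pairing out. The 4 correlations between libraries of different label series were negative (-0.27 to -0.071), and 4 of the 5 within a label series were positive (up to 0.31). The deviations were taken from group means, so those of the 3 libraries of a group cancel for each accession. Their signs are thus partly fixed in advance and cannot show a label series effect. With the label series as a term, 17924 of the 38204 accessions passed, 34 nuclear and 4 mitochondrial subunits were lower, and ND4 passed (-0.15, edgeR adjusted p = 0.0216). With the replicate block, 34 nuclear subunits were lower and 16831 of the 38204 accessions passed. With the block and both trends removed, 31 nuclear subunits were lower (median -0.29) and 5 mitochondrial subunits were lower (median -0.33). Of the genes with a known GC content, the only ones tested there, 4407 passed. The split by direction was not counted for these fits. With 3 libraries per group and about 8.05% variation between them, 26 of 50 changes of 1.5-fold were recovered on simulated counts. Few accessions were changed there and no label series effect was set, so this recovery need not hold for these data.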
